A study of Cicer arietinum with 8 samples.

Results

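A group of 197 chickpea gene models stood at least 2-fold higher in root and at least 2-fold lower in shoot after desiccation, each against the control of its own tissue. They are 197 of the 27248 annotated loci measured. The rule took the difference between the desiccation and control libraries in log2(FPKM + 1), where FPKM is fragments scaled by exon length and by the mapped fragments of the library, so that levels can be compared between genes. The members were chosen by these measured values, a root difference of at least 1 and a shoot difference of -1 or lower. Below, raised and lowered mean a difference of at least 1 on this scale (2-fold) between 2 single libraries. Of 216 gene models that met both limits, 19 were left out because another stress moved them by at least 1 the same way in both tissues. That stress was cold for 18 of them, all raised in both tissues, and salinity for 1. A mirrored rule, lower in root and higher in shoot with the same exclusion, found 134 gene models. By single tissues, 6.76% of all gene models considered were lowered in root and 9.22% raised in shoot.

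Messenger RNA libraries were made from root and shoot of 10-day-old chickpea seedlings (Cicer arietinum) of the genotype ICC4958, grown in a culture room. Treatment lasted 5 h in every group. Control seedlings were kept in water, desiccated ones lay on folded tissue paper, salt-stressed ones stood in 150 mM NaCl and cold-stressed ones in water at 4 ± 1 °C. Each of the 8 groups (root or shoot, control, desiccation, salinity or cold) is 1 library, the labels do not say how many plants it pools, and no group has a replicate.

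Roots take up water and shoots lose most of it, so the organs meet a water shortage in different places. The hormone abscisic acid accumulates in drying plants, closes stomata and switches on genes for protective proteins in many organs. Shoot growth is generally slowed more than root growth when water is short. Salt brings a loss of available water together with an excess of ions, while cold slows membranes, transport and metabolism.

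The files give each gene model as an ID only, and 0 of the 27571 annotated IDs matched the RefSeq gene table at hand. No member therefore has a name, a role, a position or a sequence here, and the tissue labels could not be checked against marker genes. Pathway lists could not be applied for the same reason. The libraries did separate by tissue. Over 16477 expressed gene models (mean at or above 1 FPKM), libraries of different tissues were at least 2-fold apart at 36.1% to 45.9%, and libraries of the same tissue at 2.51% to 25.5%. The closest pairs bear on every count that uses cold or salinity. Root cold and root desiccation were 2-fold apart at only 2.88% of these gene models, and shoot cold and shoot control at 2.51%. Shoot salinity and shoot desiccation differed at 6.65%, while root salinity differed from every other root library at 24.3% to 25.5%. Relative depth, read from low values, was 1.21 to 1.30 times that of the root control in the other libraries. Loci without an annotated ID took 48.0% to 54.1% of the summed FPKM in root and 73.2% to 78.7% in shoot.

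Before stress most members stood higher in shoot. Their median level in the control libraries was 4.60 FPKM in root and 16.3 FPKM in shoot. After desiccation the medians stood the other way round, at 14.6 FPKM in root and 4.67 FPKM in shoot. The rule used these control and desiccation libraries, so their medians describe the choice and are not a separate trait of the members. Under cold the medians were 12.2 FPKM in root and 12.9 FPKM in shoot, and under salinity 7.11 and 8.69 FPKM. The median level of all 17329 annotated gene models that reached 1 FPKM in any library ran only from 11.2 to 12.3 FPKM over the 8 libraries. A member's mean over the 8 libraries ran from 1.02 to 494 FPKM, with a median of 13.0 FPKM. In the root control 22 members were under 1 FPKM and 2 were listed at 0, and in desiccated shoot 24 were under 1 FPKM.

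**Figure D1:**
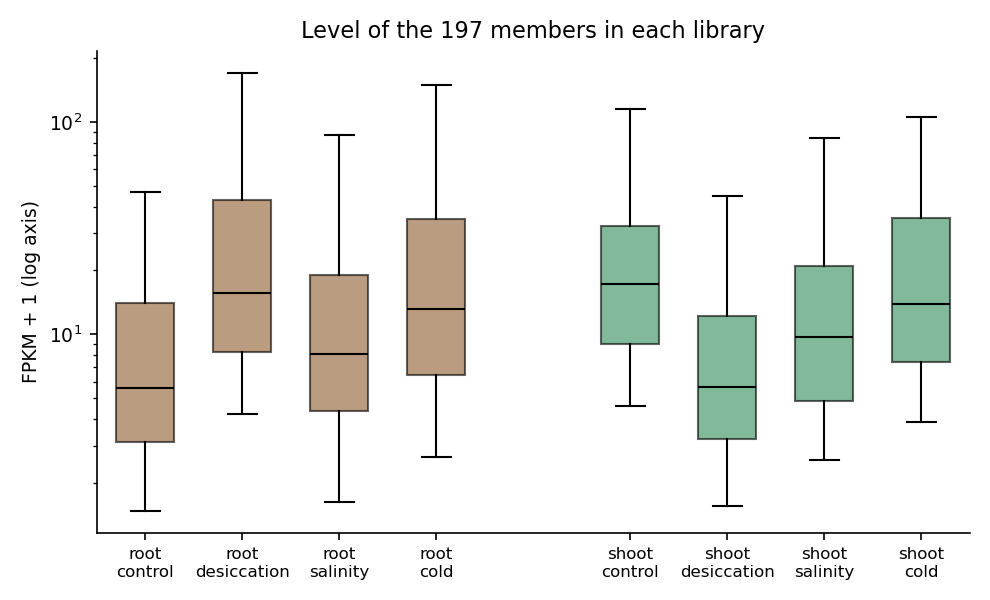
Level of the 197 members in each library, as FPKM + 1 on a log axis. Boxes give the quartiles and median over members, whiskers the 5th and 95th percentiles. The root boxes are low in control and high in desiccation and cold, and the shoot boxes are high in control and cold and low in desiccation. Control and desiccation values chose the members.

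The change that chose the members was moderate for most of them. In root the median difference was 1.34 on the log2(FPKM + 1) scale, with quartiles of 1.18 and 1.68 and a maximum of 3.64. In shoot the median was -1.35, with quartiles of -1.73 and -1.14 and a minimum of -4.08. Differences of at least 2 (4-fold) were found at 21 members in root and 27 in shoot. Across all gene models that reached 1 FPKM in either library, 9.64% stood at least 2-fold higher in desiccated root and 10.0% at least 2-fold lower in desiccated shoot. These values chose the members, so they are a description and carry no test.

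**Figure D2:**
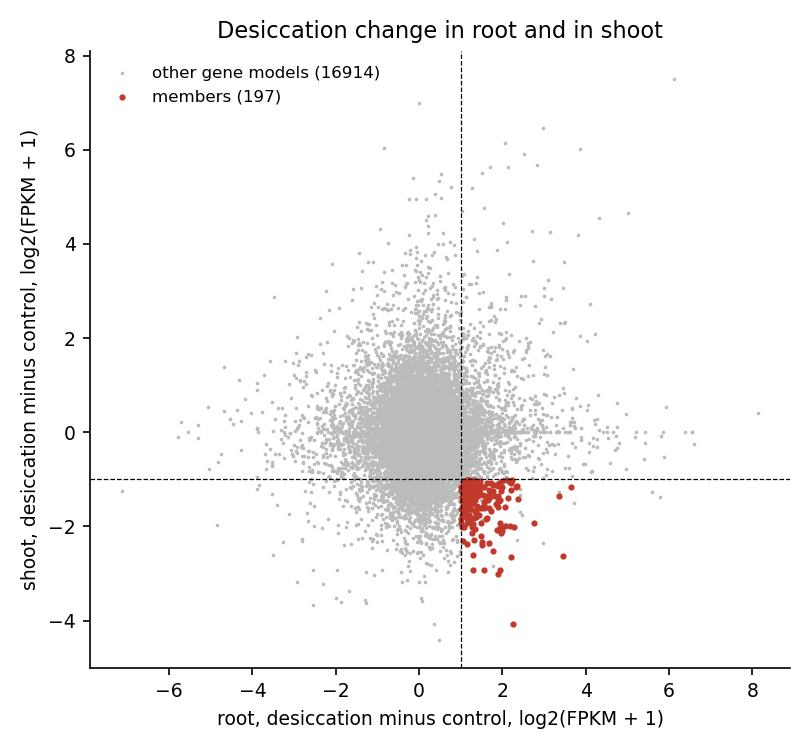
Desiccation minus control in root (x axis) and in shoot (y axis), in log2(FPKM + 1), for the 197 members (red) and 16914 other gene models that reached 1 FPKM in a control or desiccation library (grey). Dashed lines mark the limits of 1 and -1, and the grey points inside the lower right corner are the 19 left out for moving the same way in both tissues under another stress.

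The member with the strongest pair of changes is a locus that carries both Ca_11564 and Ca_11565, so reads of the 2 models were not separated. In root it stood at 4.38 FPKM in control, 57.5 FPKM in desiccation, 35.9 FPKM in salinity and 41.3 FPKM in cold. In shoot it stood at 58.8, 8.75, 50.9 and 63.8 FPKM in the same order. All 3 root stresses stood far above the root control, and in shoot desiccation was the single low library. Its desiccation change was 3.44 in root and -2.62 in shoot (log2).

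Ca_04877 had the lowest shoot difference of all members. It went from 24.8 FPKM in the shoot control to 0.522 FPKM in desiccated shoot, a log2 difference of -4.08, and stood at 1.45 FPKM in salinity and 16.3 FPKM in cold. In root it was listed at 0 in control, and stood at 3.73 FPKM in desiccation, 0.401 FPKM in salinity and 2.92 FPKM in cold. Shoot salinity therefore lay close to shoot desiccation and shoot cold close to the control. The root values are low, and its differences depend on the pseudocount. With 0.1 in place of 1 the shoot difference was -5.32 and the root difference 5.26, and with 5 they were -2.43 and 0.80.

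Ca_11867 had root levels of 3.49 FPKM in control, 16.4 FPKM in desiccation, 4.24 FPKM in salinity and 22.7 FPKM in cold. Its shoot levels were 41.97 FPKM in control, 4.67 FPKM in desiccation, 11.7 FPKM in salinity and 52.3 FPKM in cold. Root desiccation and root cold were high together, shoot control and shoot cold were high together, and salinity was near the control in root but low in shoot.

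Ca_17556 and Ca_15133 show the most frequent joint pattern of the members, counted further on. Ca_17556 had root levels of 19.3, 83.97, 20.7 and 91.6 FPKM in control, desiccation, salinity and cold, with shoot levels of 72.7, 17.7, 44.4 and 68.1 FPKM. For Ca_15133 the root levels were 18.5, 74.6, 19.7 and 81.8 FPKM and the shoot levels 55.9, 11.9, 28.3 and 68.9 FPKM. In both, root salinity lay close to the root control, at differences of 0.10 and 0.08 (log2), and shoot salinity lay between shoot control and shoot desiccation.

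A different starting point was seen in Ca_19438, which stood higher in root throughout. Root levels were 60.7 FPKM in control, 240.3 FPKM in desiccation, 46.6 FPKM in salinity and 160.4 FPKM in cold. In shoot it stood at 7.92, 1.16, 2.71 and 5.69 FPKM. Root led in all 4 treatments, and by the widest margin in desiccation.

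The other members with the largest lesser change (the smaller of the root and the shoot difference in size) were of moderate or low level. Ca_05719 moved between control and desiccation from 4.08 to 22.4 FPKM in root, and in shoot from 41.5 to 5.83 FPKM. For Ca_10048 the root values were 7.12 and 38.3 FPKM and the shoot values 8.71 and 1.41 FPKM. For Ca_10785 they were 3.08 and 17.4 FPKM in root, with 64.7 and 15.5 FPKM in shoot. Of these 3, Ca_10048 had near-equal controls in root and shoot, and the others began far higher in shoot. Ca_02855, Ca_01164 and Ca_04947 completed the 12, with lesser changes of 1.99, 1.94 and 1.92 (log2).

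Among the members with the highest levels, Ca_05441 had 214 FPKM in root control against 530.4 FPKM in root desiccation, with 749 and 266 FPKM in the matching shoot libraries. Its root cold level of 525 FPKM was as high as in desiccation, and its shoot cold level of 780.0 FPKM as high as in the control. Ca_18111 had root levels of 145, 336, 72.97 and 452 FPKM in control, desiccation, salinity and cold, with shoot levels of 159, 74.7, 119.9 and 212 FPKM. Those of Ca_11235 were 99.5, 237, 125 and 321 FPKM (root) and 114, 52.7, 91.3 and 135 FPKM (shoot). For both of these, cold was the highest library in both tissues.

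At the limits of the rule the choice is a matter of hundredths. Just inside the root limit, Ca_11076 had 1.28 FPKM in control and 3.56 FPKM in desiccation, and Ca_07386 and Ca_11615 had root differences of 1.01. Just outside it, Ca_12505, Ca_00278 and Ca_04588 fell short by less than 0.01, with 5.29 and 11.6 FPKM at Ca_12505. Just inside the shoot limit, Ca_15309, Ca_16971 and Ca_14694 passed by less than 0.01, with 13.7 and 6.33 FPKM at Ca_15309. Outside it, Ca_13513, Ca_04166 and Ca_16415 missed it by less than 0.01, with 7.34 and 3.19 FPKM at Ca_16415.

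Root and shoot were then compared within each treatment. In control and desiccation these are the libraries of the rule, which moves the root minus shoot difference of every member by at least 2 (log2). In the control libraries 140 of the 197 members stood at least 2-fold higher in shoot and 9 at least 2-fold higher in root. Over all gene models considered, 19.5% were higher in shoot and 19.5% higher in root. In the desiccation libraries 125 members stood at least 2-fold higher in root and 5 at least 2-fold higher in shoot, where 21.1% and 18.5% of all gene models did so. At 68 members (34.5%) the lead turned from at least 2-fold in shoot to at least 2-fold in root, where 0.903% of gene models considered in both treatments did so. By any amount, 178 members (90.4%) led in shoot in control, 186 (94.4%) led in root in desiccation, and 167 (84.8%) did both. Control and desiccation values chose the members, so nothing is read from these counts against the background. A 2-fold lead of shoot in both treatments was found at 5 members (2.54%), and of root at 9 (4.57%), where 12.6% and 12.4% of gene models considered in both treatments had one.

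By medians, root and shoot lay closer together under salinity and cold than in control or desiccation, with a lean to shoot. Under salinity 25 members (12.7%) stood at least 2-fold higher in root and 39 (19.8%) higher in shoot, with 20.0% and 18.5% of all gene models on those sides. Under cold the counts were 32 (16.2%) and 33 (16.8%), with 19.2% and 17.9% of all gene models. Root led by any amount at 76 members (38.6%) under salinity and 81 (41.1%) under cold. Over all gene models considered, it led at 8427 of 16658 under salinity and 8714 of 16686 under cold. The median root minus shoot difference of the members was -1.48 in control, 1.38 in desiccation, -0.30 in salinity and -0.14 in cold (log2), against -0.02, 0.10, 0.01 and 0.05 over all gene models considered.

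**Figure D3:**
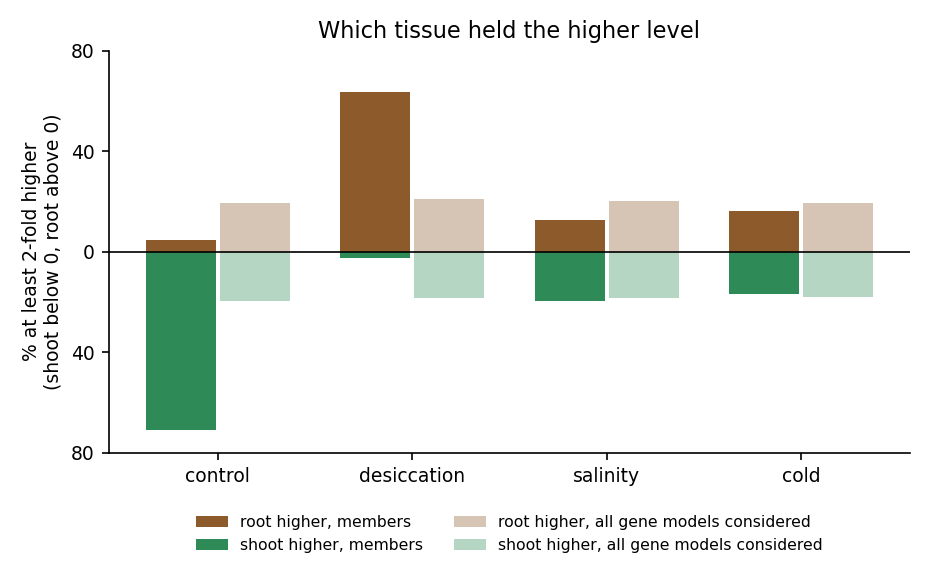
Percent of gene models at least 2-fold higher in root (above 0, brown) or in shoot (below 0, green) in each treatment, for the 197 members (dark) and for all gene models that reached 1 FPKM in either library (pale). Members lead in shoot in control (140 of 197) and in root in desiccation (125 of 197), the libraries whose values chose them. In salinity 25 are higher in root and 39 in shoot, and in cold 32 and 33.

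The salinity and cold libraries took no part in the desiccation contrast, though the exclusion of 19 gene models used them, and they allow a test of root against shoot. A limma model with tissue and treatment was fitted to 21708 loci whose mean over these 4 libraries reached 1 FPKM, and 197 of 197 members passed that filter. With limma 28 members (14.2%) had an adjusted p under 0.05, against 22.6% of all loci tested and 21.7% of annotated ones. Of these, 11 (5.58%) were higher in root, where 9.7% of all loci were, and 17 (8.63%) higher in shoot, where 12.9% were. In a whole organ, fewer cells of a type and less RNA per cell cannot be told apart. Each treatment has 1 library per tissue. The test therefore sets the mean root minus shoot difference against its change between salinity and cold, with the spread shared over loci. Over all gene models, root cold lay near root desiccation, shoot cold near shoot control and shoot salinity near shoot desiccation. The cold and shoot salinity values are therefore not independent of the libraries that chose the members.

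The largest such difference was that of Ca_07889, a gene model of very high level in shoot. Shoot levels were 692, 335, 323 and 583 FPKM in control, desiccation, salinity and cold, and root levels 0.944, 3.59, 0.573 and 3.0 FPKM. Its root minus shoot difference under salinity and cold was -7.44 (log2, SE 0.35, limma adjusted p = 0.000602). The root level was under 1 FPKM in control and a few FPKM in desiccation, and the shoot level stayed far above it throughout. Ca_13884 was of the same kind, with 211, 61.6, 98.1 and 309 FPKM in shoot and 1.07, 4.59, 2.85 and 4.44 FPKM in root (difference -5.26, SE 0.41, limma adjusted p = 0.00139). Ca_20513 had shoot levels of 51.5, 13.9, 21.8 and 64.3 FPKM and reached at most 2.12 FPKM in root. The fourth was Ca_03165, with 20.03, 5.68, 9.49 and 12.8 FPKM in shoot and at most 1.92 FPKM in root. At these gene models the root difference rests on low values, and shoot held the higher level in every treatment.

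On the root side, Ca_15172 had the largest difference, 6.17 (log2, SE 0.81, limma adjusted p = 0.00602). Its root levels were 21.97 FPKM in control, 232 FPKM in desiccation, 1615 FPKM in salinity and 202 FPKM in cold, and the salinity value is the highest of any member. In shoot it stood at 4.25, 1.04, 5.97 and 8.06 FPKM, where desiccation was the low library and the other stresses lay above the control. Ca_18044 had root levels of 15.7, 50.1, 276 and 94.3 FPKM and shoot levels of 5.95, 0.930, 1.74 and 7.43 FPKM (difference 5.08, SE 0.77, limma adjusted p = 0.00921). Salinity was its highest root library too, but in shoot salinity lay near desiccation. Ca_19438, described above, had a difference of 4.14 (SE 0.38, limma adjusted p = 0.00218), and Ca_15070 one of 3.06 with 22.97, 54.7, 17.4 and 63.7 FPKM in root.

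The next comparison set salinity and cold against the control of each tissue. These comparisons share the control libraries with the contrast that chose the members, so each is given by its own counts. Root cold was also close to root desiccation, and shoot cold to shoot control, over all gene models. In root, cold stood at least 2-fold above the control at 127 of 197 members (64.5%) and below it at 0. Over all gene models considered 8.53% were raised by root cold and 7.91% lowered. Among the 1548 gene models raised in root by desiccation, whatever they did in shoot, 67.0% were raised and 0.129% lowered by root cold. The share of members raised by root cold was 64.5%, near that wider group. Root salinity raised 35 members (17.8%) and lowered 5. That compares with 14.9% raised and 11.8% lowered over all gene models, and with 44.6% raised and 4.39% lowered among the 1548. The medians over members were 1.14 for root cold and 0.36 for root salinity (log2), against 0.02 and 0.01 over all gene models.

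Shoot salinity lowered 59 members (29.9%) and raised 1, where 4.52% of all gene models were lowered and 6.54% raised. Among the 1610 gene models lowered in shoot by desiccation, 33.8% were lowered and 0.745% raised by salinity. Shoot cold raised 0 members and lowered 0, with 2.25% and 0.447% of all gene models on those sides and 2.11% and 1.18% of the 1610. Before the exclusion, shoot cold raised 18 of the 216 gene models (8.33%) and lowered 0. All 18 were raised by cold in both tissues and left out, so the 0 raised is set by the rule. The member medians were -0.84 for shoot salinity and -0.21 for shoot cold (log2), against -0.02 for both over all gene models.

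**Figure D4:**
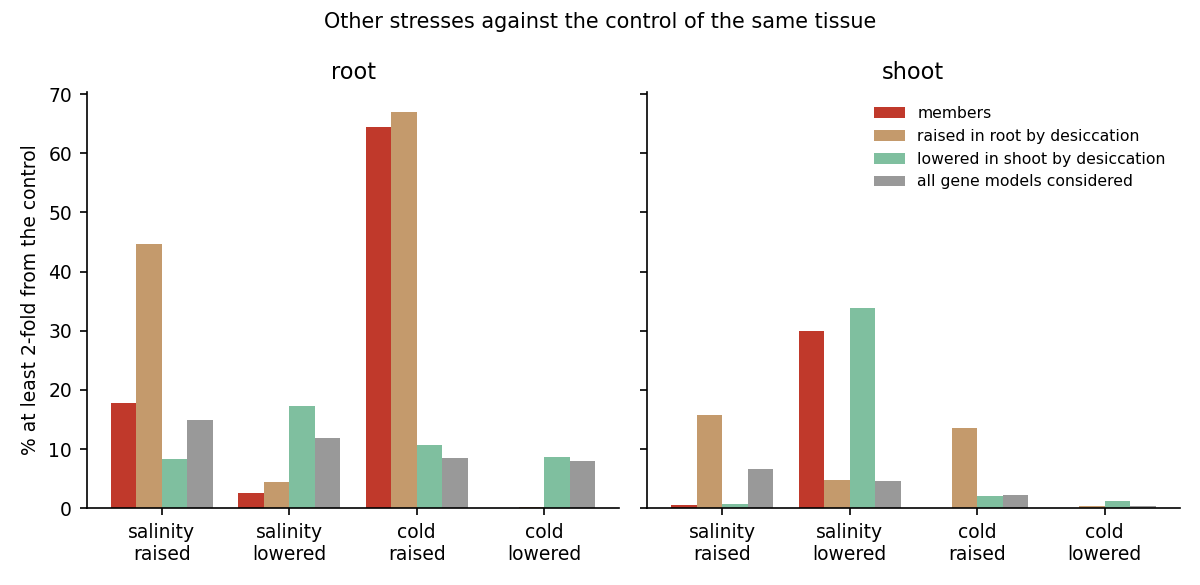
Percent of gene models at least 2-fold above (raised) or below (lowered) the control of the same tissue under salinity and cold, in root (left) and shoot (right). Red bars are the 197 members, brown the 1548 raised in root by desiccation, green the 1610 lowered in shoot by desiccation, and grey all gene models that reached 1 FPKM in either library. Root cold raised 127 of 197 members (64.5%), beside 67.0% of the 1548 and 8.53% of all gene models considered. Shoot salinity lowered 59 of 197 (29.9%), beside 33.8% of the 1610 and 4.52% of all gene models considered.

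The libraries were also put in order within each tissue. The rule places desiccation above control in root and below it in shoot, so part of this order was set by the choice. The order was counted for members only, with no share over all gene models. In root, desiccation was the highest of the 4 libraries at 143 members, cold at 36 and salinity at 18, while control was the lowest at 146 and salinity at 50. In shoot, control was the highest at 127 members, cold at 62 and salinity at 8, while desiccation was the lowest at 190 and salinity at 7. By the 2-fold mark, 98 members were raised in root by desiccation and cold but not moved by salinity, 59 by desiccation alone, 26 by all 3 stresses and 9 by desiccation and salinity. Another 3 were raised by cold and lowered by salinity in root, and 2 were lowered by salinity and not moved by cold. The most frequent joint pattern, at 67 members, was raised in root by desiccation and cold and lowered in shoot by desiccation alone. A further 30 members, Ca_11867 among them, had that root pattern and were lowered in shoot by salinity too, and 39 passed the 2-fold mark under desiccation alone in both tissues. Many members moved the same way below that mark. By any amount, root cold stood above the control at 196 of 197 members, against 8201 of 15972 gene models considered. Shoot salinity stood below the control at 183 members, against 8199 of 16044 gene models. These patterns too were counted for members only. Root cold also raised 67.0% of the 1548 gene models raised in root by desiccation, and the exclusion left no member raised by shoot cold. The patterns are therefore not read as traits of the members.

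Salinity moved 9 members (4.57%) in the same crossed way as desiccation, higher in root and lower in shoot, where 0.291% of all gene models considered in both tissues did so. The share was 0.775% of the 1548 raised in root by desiccation and 2.17% of the 1610 lowered in shoot, and both wider groups hold the 9. Salinity was set against the same control libraries that chose the members, low in root and high in shoot, so the excess over all gene models is not independent of the choice. Cold did this at 0 members, where 0.047% of all gene models did. Of the 9, Ca_00054 had the largest lesser change under salinity, with root levels of 1.77, 5.63, 8.16 and 5.69 FPKM in control, desiccation, salinity and cold. Its shoot levels were 7.96, 1.05, 2.12 and 6.32 FPKM. Root levels of Ca_05936 were 3.04, 14.6, 16.3 and 10.4 FPKM and shoot levels 5.50, 1.38, 1.74 and 8.63 FPKM. Ca_01159 gave 4.50, 19.3, 33.3 and 18.4 FPKM (root) and 41.99, 14.8, 17.4 and 32.1 FPKM (shoot). In all 3, root salinity was the highest root library, and shoot salinity lay between desiccation and control. Ca_10785, Ca_18044 and Ca_09850 were also among the 9.

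At 6 members salinity moved a tissue the opposite way from desiccation. Ca_02971 had root levels of 68.5 FPKM in control, 178 FPKM in desiccation, 163 FPKM in cold and only 19.7 FPKM in salinity. Its shoot levels were 9.09, 1.91, 17.5 and 13.7 FPKM in control, desiccation, salinity and cold, so shoot salinity lay above the shoot control, by less than 2-fold (0.88, log2). Ca_18425 had 23.5 FPKM in root salinity, 81.2 FPKM in root control and 184 FPKM in root desiccation. Root levels of Ca_12971 were 26.8, 102, 12.2 and 143 FPKM, and those of Ca_08774 2.69, 9.92, 0.466 and 9.20 FPKM, both with salinity as the lowest library. Ca_07386 was the fifth of this kind in root. In shoot Ca_20213 was alone, at 15.7 FPKM in control, 1.2 FPKM in desiccation, 44.3 FPKM in salinity and 13.8 FPKM in cold. Its root levels were 108, 319, 102 and 218 FPKM.

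The salinity and cold libraries were also compared directly, without a control or desiccation library, although the exclusion of 19 gene models used them. This comparison is not independent of the rule. Over all gene models cold stood near desiccation in root and near control in shoot, and salinity stood near desiccation in shoot, as the shares given above show. In root, cold stood at least 2-fold above salinity at 74 members (37.6%) and below it at 6, where 11.0% and 14.5% of all gene models did so. In shoot, cold stood at least 2-fold above salinity at 34 members (17.3%) and below it at 1, where 3.84% and 4.54% of all gene models did. Cold was above salinity by any amount in both tissues at 156 members (79.2%), and at 79.6% of the 216 before the exclusion, against 31.1% of all gene models considered in both. With the 2-fold mark in both tissues there were 17 members (8.63%) and 14.8% of the 216, against 1.42%. The median salinity minus cold difference of the members was -0.66 in root and -0.60 in shoot (log2), against -0.03 and 0.00 over all gene models. Of the 1548 gene models raised in root by desiccation, 34.9% stood at least 2-fold higher in root cold than in root salinity. Another 18.1% stood at least 2-fold lower. The member shares on these sides were 37.6% and 3.05%. Of the 1610 lowered in shoot by desiccation, 23.0% stood at least 2-fold higher in shoot cold and 0.870% lower, beside 17.3% and 0.508% of members. A 2-fold lead of cold over salinity within a tissue was therefore not particular to the members. In root, though, a smaller share of members than of the 1548 stood on the opposite side. The joint lead in both tissues was not counted in these wider groups. The 134 gene models of the mirrored rule went the other way. Salinity stood at least 2-fold above cold at 65 of them (48.5%) in root and 46 (34.3%) in shoot, and below it at 2 and 0. Over all gene models, 14.5% and 4.54% had salinity above cold by that mark. The mirrored rule used the same control and desiccation libraries, so its lean is not independent of that choice either. Gene models are not independent replicates and each library stands alone, so these shares have no p-value.

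**Figure D5:**
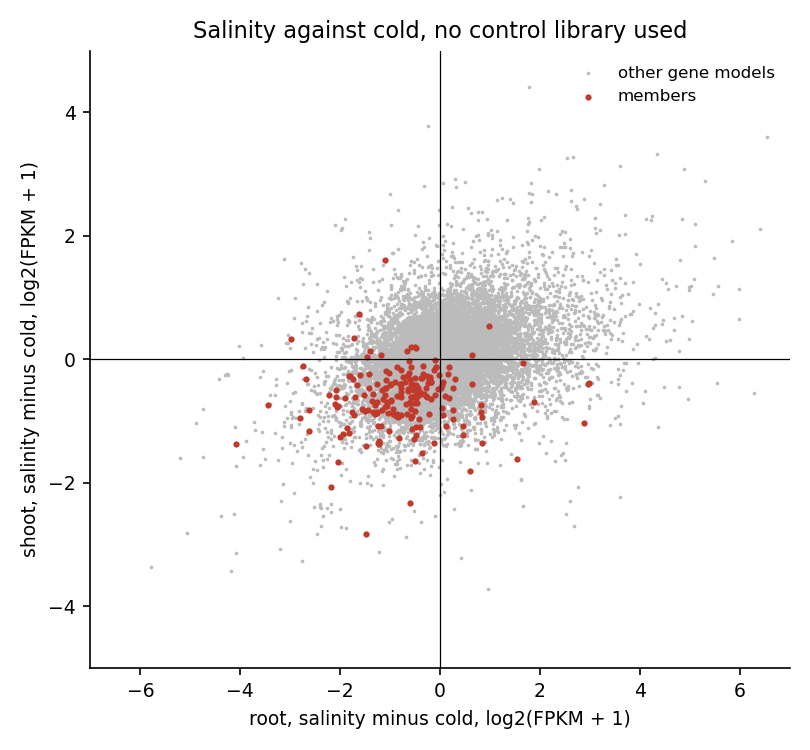
Salinity minus cold in root (x axis) and in shoot (y axis), in log2(FPKM + 1), for the 197 members (red) and the other gene models that reached 1 FPKM in salinity or cold in each tissue (grey). Most members (156 of 197) lie at lower left, where cold is above salinity in both tissues.

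Ca_11169 had the largest difference between these libraries in root, with 147 FPKM in cold and 7.75 FPKM in salinity, beside 11.95 FPKM in control and 65.2 FPKM in desiccation. Its shoot levels were 9.52, 3.77, 5.49 and 15.8 FPKM in control, desiccation, salinity and cold. In shoot the largest differences were those of Ca_04877 and Ca_13680. Ca_13680 had 43.3 FPKM in shoot cold and 7.79 FPKM in shoot salinity, beside 26.8 FPKM in control and 2.64 FPKM in desiccation, with root levels of 6.67, 17.6, 6.81 and 10.9 FPKM. At Ca_15172 root salinity stood above root cold instead, by 2.99 (log2).

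Ca_00308 and Ca_00309 were the 1 pair of members with consecutive ID numbers on separate loci, a count with no background here, and their coordinates were not used here. Ca_00308 had root levels of 4.94, 18.03, 9.83 and 21.6 FPKM and shoot levels of 23.1, 3.75, 15.2 and 26.3 FPKM. For Ca_00309 they were 4.65, 13.5, 9.40 and 12.5 FPKM (root) and 7.44, 1.65, 5.13 and 6.59 FPKM (shoot). Both had the same order of control, salinity and desiccation in each tissue. In all, 4 member loci carry more than 1 ID, and 1 ID, Ca_20920, stands on 2 loci that are both members, so reads may have been merged or split there.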

How the data were processed

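Per the series' design text, reads were quality filtered (NGS QC Toolkit), aligned by TopHat to the chickpea genome and summarised as FPKM by Cufflinks, all by the authors. The deposited FPKM values were used as they stand, 1 file per library and 34193 loci each. Tool versions, genome build and annotation release were not given in the sources used here. Because FPKM is relative to a library's total, very abundant transcripts lower all other values.

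Groups came from the sample titles. Differences were taken in log2(FPKM + 1), which understates changes at low levels. A gene model counted as raised or lowered at a difference of at least 1, and shares over all gene models are of those with at least 1 FPKM in either library. With 1 library per group these differences have no replicate check and no p-value.

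Root and shoot were tested over the salinity and cold libraries with limma 3.58.1 in R 4.3.3 (treatment as a term, trended empirical Bayes, 1 residual degree of freedom, Benjamini-Hochberg over all loci tested). Nothing says that tissues came from separate plants, and its p-values rest only on the spread between these libraries.

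Relative depth was the most frequent ratio over loci above 0 and under 0.3 FPKM in both the root control and the library compared. A check then used 318 loci with all values under 0.3 FPKM. Of these 318, 31.8% held whole multiples of 1 step within 5% in the libraries above 0. There, the median was 21.5 fragments per FPKM (quartiles 13.8 and 27.6), so counting error is large at levels around 1 FPKM. Read counts could not be recovered for most loci, which left no basis for a count test. Gene lengths are not part of the files, so no fragment number can be given for a member.

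The members, lists and tests were chosen with earlier results of these data known. Named genes are the 12 members with the largest lesser change, the 6 with the highest FPKM in any library, those nearest the limits, those that salinity or cold moved in the same crossed way or the opposite way, the largest salinity-cold and root-shoot differences, and consecutive IDs. Product-word and marker lists could not be applied, since IDs have no names here. Steps were tested on simulated data. Tables and figures used Python 3.11.15, numpy 2.4.6, pandas 2.3.3 and matplotlib 3.10.9.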

Additional observations from a re-analysis of the deposited data

Results flagged for a closer look

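Root and shoot moved in opposite directions under desiccation at 197 gene models, which is how they were chosen. Under salinity 9 of them (4.57%) stood at least 2-fold higher in root and at least 2-fold lower in shoot than the control, where 0.291% of all gene models did (44 of 15109). The salinity contrast uses the control libraries that chose the members, so this count is not independent of the choice. Each side is 1 library, so neither difference between root and shoot was tested.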

How the results depend on the processing

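The number of members depended most on the pseudocount and the threshold. The rule found 442 gene models with a pseudocount of 0.1 (193 of the 197 among them), 49 with a pseudocount of 5 and 6 at 4-fold. Median-ratio scaling gave 180 and quantile normalization 179, of which 180 and 173 were among the 197. The later counts are of the 197 members. With a pseudocount of 5, root salinity raised 17 and lowered 2, root cold raised 59 and shoot salinity lowered 17. Cold then stood above salinity at 44 in root, at 14 in shoot and at 5 in both tissues, and shoot led at 89 in control and at 3 in desiccation. With a pseudocount of 0.1, shoot salinity lowered 89, and shoot cold raised 2 and lowered 2. Either scaling gave 1 member raised by shoot cold. At 4-fold, root salinity raised 12 and lowered 0, root cold raised 17, and shoot salinity lowered 1 and raised 0. At 4-fold cold stood above salinity at 17 in root and 3 in shoot, and below it at 3 in root and 0 in shoot. With the 19 left-out gene models included, an alternative chosen after seeing the data, cold stood above salinity in shoot at 53 of 216. The limma test called 7 higher in root and 10 higher in shoot with a pseudocount of 5, 6 and 7 without the filter, and 11 higher in shoot without the trend. The cause of these shifts was not tested. A further 96 recounts stayed within 1.5 times. No scaling moved the median of all gene models by more than 0.08 (log2). Of the differences of named genes, the fold of 48 moved by over 1.5 times, in every case with another pseudocount, and 280 did not. The samples carry no replicate numbers, so no replicate block was fitted. The treatment term pairs root with shoot, and over all 8 libraries this fit called 13 members higher in root and 13 in shoot. No library could be left out of the limma fit, since 3 libraries leave it no residual degrees of freedom. Low counts limit members under 1 FPKM most.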
